A study of Mus musculus with 9 samples.

Results

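Lipoproteins carry cholesterol and other lipids between cells in particles that are built on apolipoproteins, and 9 genes of this transport were followed across the outer layers of the mouse eye. They are the apolipoproteins Apoe and Apob, the particle loader Mttp, the exporters Abca1 and Abcg1, the receptors Vldlr and Scarb1, and the particle-bound plasma proteins Pon1 and Pltp. A probe was taken when it was not a control and its gene name in the array files was 1 of these symbols, which gave 12 probes and 30 spots out of 39429 probes and 43020 spots. Apoe and Pon1 had 1 probe each, printed 10 times on every array. Apob, Vldlr and Scarb1 had 2 probes each, and the other genes had 1 probe and 1 spot.

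The retinal pigment epithelium (RPE) lies between the choroid (CH), a vascular layer, and the photoreceptors (PR). It engulfs the lipid-rich tips of photoreceptor outer segments every day, takes up lipoproteins from the choroidal blood, and is known to secrete particles that hold Apob and Apoe. Cholesterol leaves cells through ABC transporters onto apolipoprotein acceptors, and it enters them through receptors of the LDL receptor family and through scavenger receptors.

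The arrays held 3 samples each of CH, RPE and PR, each cut by laser from the cryosections of 1 eye of a female C57BL/6 mouse (J strain by the methods). By the labels the mice were 6 months old, within 2 weeks, while the methods give a slightly lower age, and no group carried a mutation or a treatment. Amplified RNA of each sample, in Cy5, was set on each array against pooled RPE/choroid reference RNA in Cy3, with no dye swap, so every value below is log2(Cy5/Cy3) of a tissue over that reference. A difference was called when it passed a fold change (FC) of 2.5 and a Benjamini-Hochberg (B-H) adjusted p of 0.01 in a limma model of all 9 arrays, adjusted over all probes. The labels do not say whether eyes came from different mice, so the p-values measure the spread between these samples, which may be in part technical. In bulk samples, fewer cells of a type and less RNA per cell cannot be told apart.

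The share of probes well above background was between 62.1% and 71.2% on 8 arrays and 91.7% on RPE replicate 2. The RPE and rod marker lists followed the labels. The mean of 8 RPE markers was 1.79 to 2.18 on the RPE arrays, 0.20 to 1.09 on the CH arrays and -2.79 to -2.64 on the PR arrays, and 7 of the 8 were called higher in RPE than in PR; the exception was Best1. In CH, this mean was 0.43, 0.20 and 1.09 on replicates 1, 2 and 3. All 8 rod markers were called higher in PR than in RPE and in CH. Between CH and RPE, 6 of 6 fibroblast, 3 of 8 macrophage, 1 of 6 smooth muscle and pericyte and 1 of 6 Müller glia markers were called higher in CH, and 0 of 6 endothelial markers were called (1 at an unadjusted p below 0.05 in limma). Against PR, 5 of 6 endothelial markers were called higher in both RPE and CH. Also called higher in RPE than in PR were 6 of 6 fibroblast, 5 of 8 macrophage, 5 of 6 smooth muscle and pericyte and 2 of 6 Müller glia markers. Of all probes, 10.2% were called in this direction. The endothelial marker mean was 1.17 to 1.33 on the RPE arrays and 1.00 to 1.66 on the CH arrays. The part of choroidal RNA in the RPE values was not tested.

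Promoter windows of the 4 genes that were called higher in both RPE and CH than in PR with all their probes are given first, since these genes moved the same way against the photoreceptors. The RefSeq table (GRCm38.p6) held windows for 7 of the 9 genes, 10 windows in all. Each sequence is the 250 bases before the start, 5′ to 3′ on the strand of the gene. The minus strand was read for all 4, at chr6:5193947-5194196 for Pon1, chr2:164857709-164857958 for Pltp, chr7:19699189-19699438 for the most upstream of 3 starts of Apoe, and chr4:53159896-53160145 for Abca1. Capitals mark matches on either strand to TAATCC (the core bound by OTX and CRX factors) or CACGTG (an E-box).
Pon1: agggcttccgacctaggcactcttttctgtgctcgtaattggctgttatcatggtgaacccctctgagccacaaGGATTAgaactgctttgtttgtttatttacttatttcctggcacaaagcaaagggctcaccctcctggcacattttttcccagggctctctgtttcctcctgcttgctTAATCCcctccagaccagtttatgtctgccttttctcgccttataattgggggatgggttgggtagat
Pltp: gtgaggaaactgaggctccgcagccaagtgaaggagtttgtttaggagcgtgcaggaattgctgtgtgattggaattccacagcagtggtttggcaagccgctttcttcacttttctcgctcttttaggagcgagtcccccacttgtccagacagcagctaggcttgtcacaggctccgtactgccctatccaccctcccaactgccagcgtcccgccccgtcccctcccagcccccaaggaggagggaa
Apoe: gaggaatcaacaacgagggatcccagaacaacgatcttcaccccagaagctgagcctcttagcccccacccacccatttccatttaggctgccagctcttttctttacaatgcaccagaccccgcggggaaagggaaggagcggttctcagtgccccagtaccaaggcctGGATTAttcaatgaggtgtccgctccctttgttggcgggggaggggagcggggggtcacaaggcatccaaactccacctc
Abca1: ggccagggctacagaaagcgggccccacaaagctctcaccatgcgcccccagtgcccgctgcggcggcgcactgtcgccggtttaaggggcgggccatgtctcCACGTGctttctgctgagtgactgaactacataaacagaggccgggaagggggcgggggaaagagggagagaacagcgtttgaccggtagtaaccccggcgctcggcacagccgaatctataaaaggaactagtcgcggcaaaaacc

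The Pon1 window held TAATCC on both strands, 176 and 68 bases before the start, and the Apoe window held it on the minus strand, 80 bases before the start. The windows of the other 2 starts of Apoe held none of the motifs searched. Of 32851 promoter windows of this length, 6.25% held TAATCC and 6.02% held CACGTG. The core of the M-box bound by MITF, CATGTG, was in 0 of the 10 windows against 12.3% of all windows, and the DR4 element bound by LXR was in 0 of the 10 against 0.0152%. DR4 was searched only as an exact repeat of the same bases around a free spacer, and imperfect repeats were not searched. The 0 for DR4 therefore does not show that these windows, that of Abca1 included, lack an LXR element. A match is a string of letters and was not tested as a binding site.

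RPE and PR differed at 6 of the 12 probes, against 15.5% of all probes. Pon1, Pltp, Apoe, Abca1 and 1 probe of Vldlr were higher in RPE (10.2% of all probes were called in this direction), and Abcg1 was higher in PR (5.22% of all probes). Between RPE and CH, 2 of the 12 probes were called, against 1.73% of all probes. They belonged to Pon1 and Vldlr and were higher in RPE, a direction in which 0.185% of all probes were called, and 0 of the 12 were called higher in CH, against 1.55% of all probes; at an unadjusted p below 0.05 in limma, 1 of the 12 (Abcg1) was higher in CH. Between CH and PR, 6 of the 12 were called, against 18.4% of all probes. Pon1, Pltp, Apoe and Abca1 were higher in CH (12% of all probes) and Abcg1 and the brighter probe of Vldlr were higher in PR (6.4% of all probes). The median log2 difference over the 12 probes was 0.50 for RPE minus CH, 0.47 for RPE minus PR and 0.06 for CH minus PR, where the medians over all probes were 0.04, -0.01 and -0.06. The 3 comparisons use the same 9 arrays and are not independent of each other. The arrays lay on 3 slides, and only 1 slide held all 3 tissues, with 1 array of each. There, RPE minus PR was 7.16 for Pon1, 4.94 for Pltp and 2.62 for the upstream probe of Vldlr. CH minus PR was 4.47 for Pon1, 3.79 for Pltp, 2.56 for Abca1 and -1.39 for Abcg1. For Pon1, 6 of its 10 Cy5 spots were saturated on that RPE array. Its mean Cy3 signal was 24168 on that array and 82521 on the PR array, so no limit is drawn from 7.16. All calls named above held with slide as a block.

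**Figure D1:**
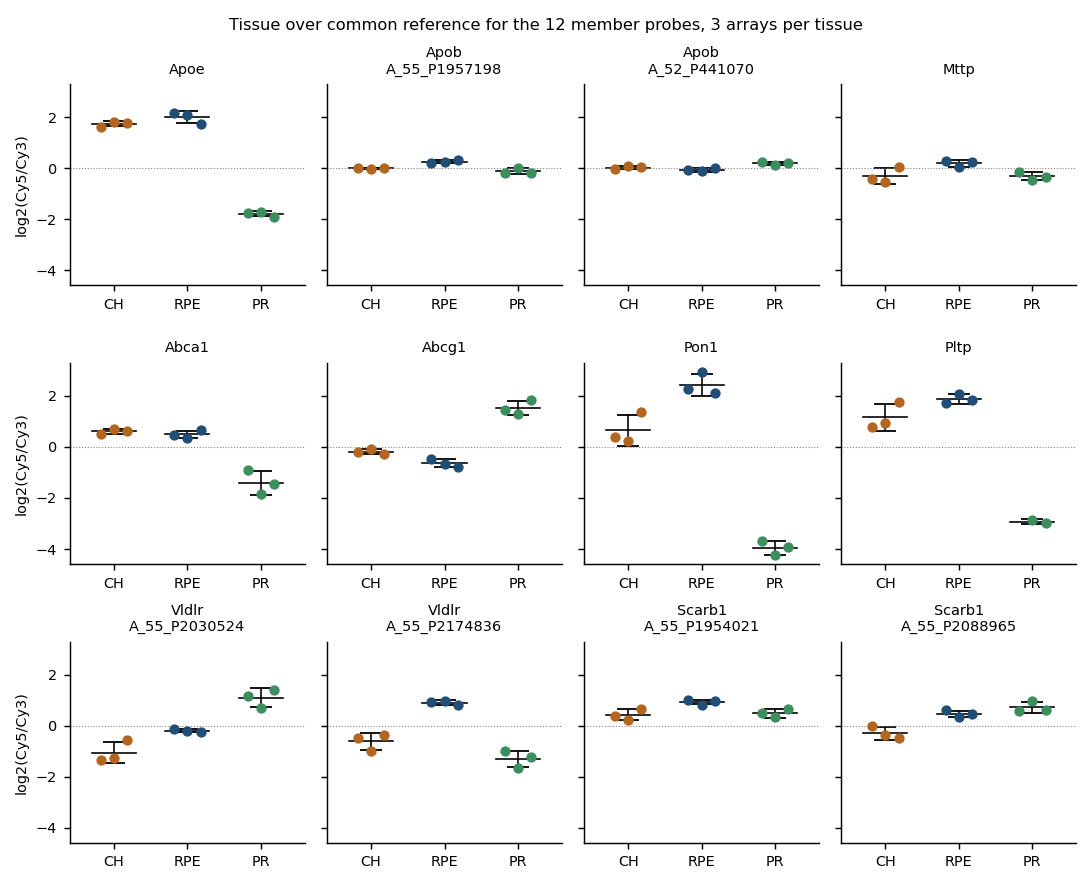
Log2(Cy5/Cy3) of each of the 12 probes on the 9 arrays, with 1 point per array, the mean as a long line and the SD as error bars. Pon1, Pltp, Apoe and Abca1 lie lower in the PR than in both other tissues and Abcg1 lies higher there, while the 2 probes of Vldlr take opposite sides in the PR.

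The tissue order of mean levels differed among the genes. At the brightest probe of each gene, Mttp, Scarb1, Pon1 and Pltp had their highest mean in the RPE, Abca1 had it in the CH, and Abcg1 and Vldlr had it in the PR. The other probes of Scarb1 and Vldlr had it in the PR and the RPE. Apoe, saturated in RPE and CH, and Apob, near background, were not ranked. The step from RPE to CH passed neither the FC nor the p threshold at the brightest probe of each ranked gene except Pon1.

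Pon1 (NM_011134, probe at chr6:5118166-5118225 of mm9) encodes paraoxonase 1, an antioxidant lactonase that travels on high-density lipoprotein. Its log2 ratio was 2.26, 2.93 and 2.11 in the RPE, 0.38, 0.24 and 1.35 in the CH, and -3.70, -4.23 and -3.92 in the PR. The 3 tissues did not overlap, and CH replicate 3 was the highest CH sample. Within an array, its 10 spots had an SD of 0.04 to 0.16, while the SD between samples was 0.61 in the CH and 0.44 in the RPE. RPE exceeded PR by 6.38 (95% interval 5.70 to 7.07), an FC of 83.5 (adjusted p = 1.24e-07, limma). On RPE replicate 2, 6 of the 10 Cy5 spots were saturated, so the Cy5 signal of Pon1 there is only a lower limit. CH exceeded PR by 4.61 (3.92 to 5.30, adjusted p = 8.03e-07). With Cy5 alone, which does not use the reference, these differences were smaller, at 5.06 and 4.02. The mean Cy3 signal of this probe was 24168 to 29890 on the RPE arrays and 66158 to 82521 on the PR arrays, and the cause was not tested. RPE exceeded CH by 1.77 (1.08 to 2.46), an FC of 3.42 (adjusted p = 0.00314).

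That last call was the less stable of the 2 between RPE and CH. It was lost when replicate 1 or 2 of either tissue was left out, with adjusted p between 0.0105 and 0.0148, although the difference stayed between 1.52 and 1.86 there. It was also lost with the log ratio of the scanner software (1.79, adjusted p = 0.0118), median centring (1.47, adjusted p = 0.0116), Cy5 alone (1.04, adjusted p = 0.0227) and the authors' normalized table (1.00, adjusted p = 0.0414). On the slide that carried 2 CH and 2 RPE arrays the difference was 1.31, and on the slide with 1 of each it was 2.69. The latter slide held the saturated RPE replicate 2. The mean Cy3 signal of Pon1 was 24168 on that array and 52176 on CH replicate 2, so no limit is drawn from 2.69. The RPE marker mean moved with Pon1 in the CH: both were highest in replicate 3, and the part of RPE RNA in the CH values was not tested.

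Pltp (NM_011125, chr2:164665022-164665081 of mm9) encodes phospholipid transfer protein, which moves phospholipids between lipoproteins and remodels high-density particles. It read 1.73, 2.08 and 1.83 in the RPE, 0.79, 0.93 and 1.76 in the CH, and -2.85 and -3.00 in PR replicates 2 and 3. PR replicate 1 was dropped, because its spot carried an outlier mark. The RPE arrays overlapped with the CH arrays through CH replicate 3, and both lay far above the PR. The difference from PR was 4.81 for RPE (FC of 28.0, adjusted p = 7.55e-07, limma) and 4.09 for CH (adjusted p = 1.62e-06). With the marked spot kept these were 4.14 and 3.42. RPE minus CH was 0.72 (0.18 to 1.25, adjusted p = 0.0613) and was not called. Without CH replicate 3 it was 1.02 (adjusted p = 0.0016, limma), still below the FC threshold. With any other CH or RPE array left out it was 0.53 to 0.79. CH replicate 3 had the highest RPE marker mean of the CH arrays, and the part of RPE RNA in its Pltp value was not tested.

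**Figure D2:**
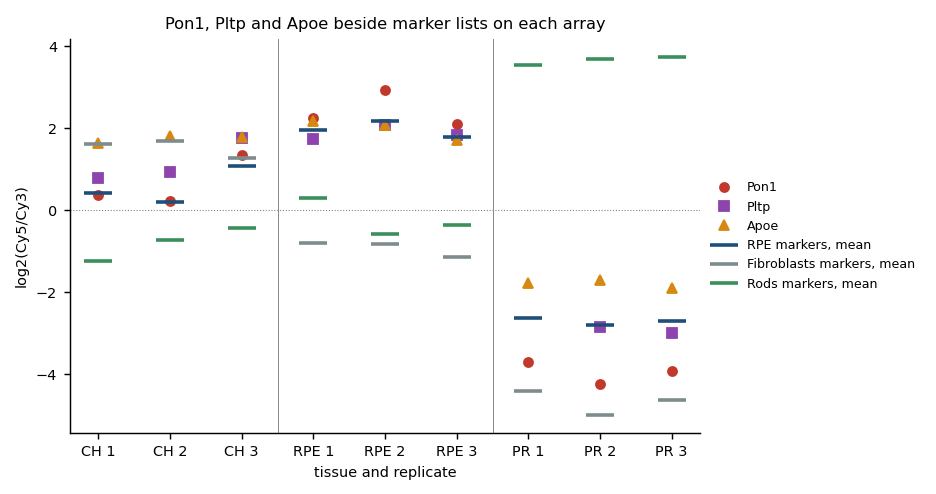
Log2(Cy5/Cy3) of Pon1, Pltp and Apoe (points) on each array beside the mean of 8 RPE, 6 fibroblast and 8 rod markers (bars). In the CH, Pon1, Pltp and the RPE marker mean are each highest in replicate 3, at 1.35, 1.76 and 1.09, and the fibroblast marker mean is lowest there, at 1.27.

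Apoe (NM_009696, chr7:20281732-20281791 of mm9) encodes apolipoprotein E, the ligand by which remnant particles bind receptors of the LDL receptor family. Its log2 ratio was 2.18, 2.09 and 1.72 in the RPE, 1.63, 1.82 and 1.78 in the CH, and -1.77, -1.70 and -1.89 in the PR. RPE and CH overlapped, and every PR sample lay below them. Apoe was the brightest of the 12 probes, and 60 to 100% of its 10 spots were saturated in Cy5 on each RPE and CH array, against 0 on the PR arrays. Its difference from PR is therefore a lower limit, taken from the Cy5 signals. By this limit, Apoe was at least 4.58-fold higher in RPE than in PR and at least 4.34-fold higher in CH than in PR. The calls themselves came from the log2 ratios (limma, adjusted p = 1.76e-08 and 1.58e-08), not from these limits. These ratios also hold the reference channel. The mean Cy3 signal of this probe was 44401 to 57119 on the RPE and CH arrays and 139889 to 197610 on the PR arrays, and the cause was not tested. No FC is given between RPE and CH, where both tissues were saturated.

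Apob, the structural protein of chylomicrons and very low-density particles, was at the limit of detection. At its brighter probe (chr12:8012697-8012756 of mm9, NM_009693) the signal was well above background on RPE replicate 2 alone, the array with the highest share of detected probes. At the other probe (chr12:8023194-8023253), 10497 bases away, it was well above background on PR replicate 1 alone. The log2 ratios were 0.21, 0.25 and 0.32 in the RPE, 0.00, -0.01 and 0.02 in the CH and -0.18, 0.02 and -0.17 in the PR at the brighter probe. At the other probe they were -0.08, -0.12 and 0.02 in the RPE, -0.02, 0.07 and 0.03 in the CH, and 0.24, 0.14 and 0.22 in the PR. The tissue with the highest mean differed between the probes, and no FC is drawn from signals at this level.

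Mttp (NM_001163457, chr3:137753868-137753927 of mm9) encodes the microsomal triglyceride transfer protein, which loads lipid onto Apob as it is made. It was well above background on all 9 arrays. Its log2 ratio was 0.30, 0.03 and 0.25 in the RPE, -0.44, -0.54 and 0.07 in the CH and -0.14, -0.46 and -0.33 in the PR. The RPE samples lay above all PR samples, and they overlapped with the CH through CH replicate 3. RPE exceeded CH by 0.50 (0.13 to 0.87, adjusted p = 0.0571, limma) and PR by 0.50 (0.13 to 0.87, adjusted p = 0.0278), FCs of 1.41 and 1.42 that were below the threshold. CH minus PR was 0.01 (-0.36 to 0.37), and its sign depended on the processing.

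The exporters Abca1 and Abcg1 differed from PR in opposite directions. Abca1 (NM_013454, chr4:53043944-53044003 of mm9), which moves cholesterol and phospholipid onto lipid-poor apolipoproteins, read 0.47, 0.35 and 0.65 in the RPE, 0.52, 0.72 and 0.63 in the CH, and -0.92, -1.84 and -1.47 in the PR. RPE and CH overlapped and the PR lay below both. Abca1 was higher in RPE than in PR by 1.90 (1.45 to 2.35, FC of 3.73, adjusted p = 2.61e-05, limma) and higher in CH than in PR by 2.03 (1.58 to 2.48, adjusted p = 1.34e-05). RPE minus CH was -0.13, with an interval of -0.58 to 0.32 (adjusted p = 0.70), which does not reach an FC of 2.5 on either side.

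Abcg1 (NM_009593, chr17:31252580-31252639 of mm9), which exports cholesterol to more mature high-density particles, read 1.46, 1.31 and 1.83 in the PR, -0.20, -0.09 and -0.28 in the CH, and -0.46, -0.65 and -0.77 in the RPE. The 3 tissues did not overlap, and the order was the reverse of that of Pon1. Abcg1 was higher in PR than in RPE, with an RPE minus PR difference of -2.16 (-2.48 to -1.84, FC of 4.48, adjusted p = 1.02e-06, limma), and higher in PR than in CH, with a CH minus PR difference of -1.72 (adjusted p = 3.97e-06). RPE minus CH was -0.44 (-0.76 to -0.12, adjusted p = 0.0547) and was not called. The calls of Abca1 and Abcg1 against PR held under every alternative and with any array left out. Within the slide that held 1 array of each tissue, RPE minus PR was 2.19 for Abca1 and -1.96 for Abcg1.

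**Figure D3:**
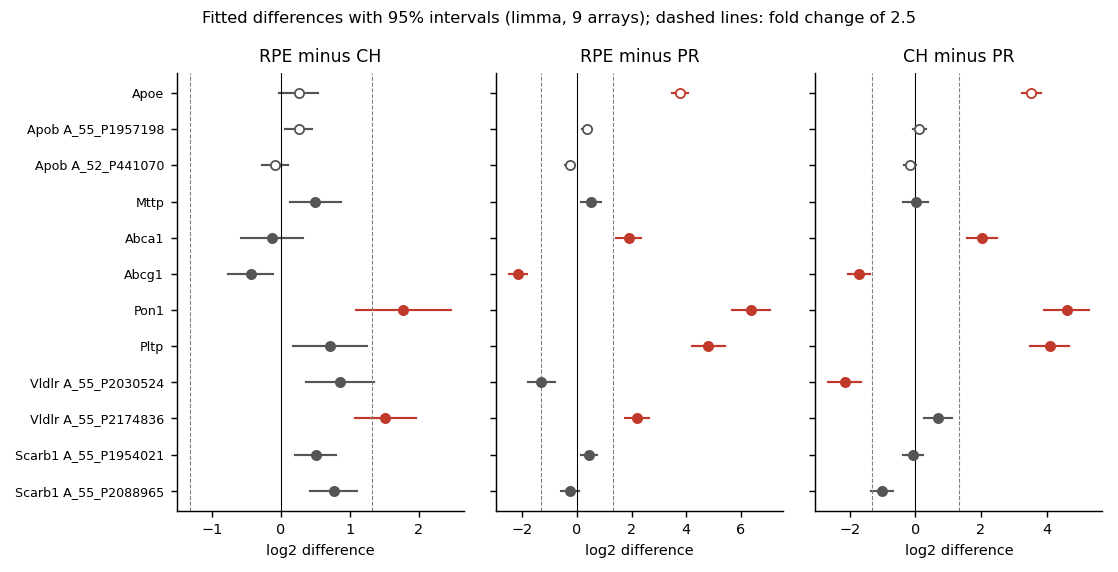
Log2 difference of each probe in the 3 comparisons, with its 95% interval from the limma fit to 9 arrays. Red marks calls, hollow points mark probes saturated or not well above background in a compared tissue, and the dashed lines stand at an FC of 2.5; Abca1 and Abcg1 lie on opposite sides of 0 in both comparisons with PR.

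Vldlr, the very low-density lipoprotein receptor, binds Apoe-rich particles and also the guidance protein reelin. The files assign both of its probes to the transcript NM_013703, and their starts are 2946 bases apart on chromosome 19 of mm9. They gave opposite results against the PR, so the first 30 of their 60 bases are shown, 5′ to 3′ on the plus strand.
A_55_P2174836 (chr19:27321104-27321163): acagtgagacaaaagatatcaacacaacag
A_55_P2030524 (chr19:27324050-27324109): ctttttcaatggttgggacaatggcaatag

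At the upstream probe, A_55_P2174836, the log2 ratio was 0.92, 0.97 and 0.80 in the RPE, -0.49, -1.01 and -0.35 in the CH, and -1.01, -1.65 and -1.25 in the PR. The RPE lay above both other tissues. It exceeded CH by 1.51 (1.08 to 1.95, FC of 2.86, adjusted p = 0.000796, limma) and PR by 2.20 (1.76 to 2.64, FC of 4.60, adjusted p = 7.63e-06). The call against CH was lost only without CH replicate 2, where the difference was 1.32. The values within the slides were 1.28 and 1.98.

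At the downstream and brighter probe, A_55_P2030524, the log2 ratio was 1.18, 0.70 and 1.41 in the PR, -0.13, -0.22 and -0.26 in the RPE, and -1.35, -1.25 and -0.57 in the CH. The PR lay above both other tissues. CH minus PR was -2.15 (-2.65 to -1.66, FC of 4.45, adjusted p = 1.87e-05, limma). RPE minus PR was -1.30 (-1.80 to -0.80, adjusted p = 0.000743), an FC of 2.46 that fell just below the threshold and passed it under 4 of 20 alternatives; with slide as a block it was -1.01 (adjusted p = 0.0308). RPE minus CH was 0.86 (0.36 to 1.36, adjusted p = 0.0213), in the same direction as at the upstream probe.

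On each array, the upstream probe minus the downstream probe was 1.05, 1.19 and 1.05 in the RPE, 0.86, 0.24 and 0.22 in the CH, and -2.19, -2.35 and -2.66 in the PR. Its mean was 3.50 higher for RPE than for PR (1.10 ± 0.08 against -2.40 ± 0.24; SD, n = 3). The groups did not overlap (exact permutation test, two-sided, p = 0.1, the smallest that 3 against 3 arrays allow). The exons in which the probes lie were not looked up, since no mm9 gene models were used here.

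Scarb1 encodes the scavenger receptor SR-BI, which takes cholesteryl ester from high-density particles. Both of its probes were assigned to NM_016741, with starts 4057 bases apart on chromosome 5 of mm9. At the brighter probe (chr5:125757483-125757542) the log2 ratio was 0.98, 0.82 and 0.96 in the RPE, 0.37, 0.23 and 0.66 in the CH, and 0.48, 0.32 and 0.67 in the PR. The RPE samples lay above all others by a small margin. RPE exceeded CH by 0.51 (0.21 to 0.80, adjusted p = 0.0229, limma) and PR by 0.43 (0.13 to 0.73, adjusted p = 0.0212), and neither difference was called.

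At the other Scarb1 probe (chr5:125761540-125761599) the values were 0.59, 0.35 and 0.45 in the RPE, -0.02, -0.39 and -0.50 in the CH, and 0.58, 0.95 and 0.60 in the PR. RPE and PR overlapped, and both lay above the CH. RPE exceeded CH by 0.76 (0.43 to 1.10, FC of 1.70, adjusted p = 0.0059, limma), and CH minus PR was -1.01 (-1.35 to -0.68, adjusted p = 0.000244). Both passed the p threshold and not the FC. CH minus PR was called under 4 alternatives, at -1.35 with slide as a block, -1.35 with the scanner log ratio, -1.39 with Cy5 alone and -1.41 with the authors' table. The difference between the Scarb1 probes was 0.68 lower for RPE than for PR (-0.46 ± 0.06 against 0.22 ± 0.37; SD, n = 3), again at the smallest p of the exact permutation test (p = 0.1).

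**Figure D4:**
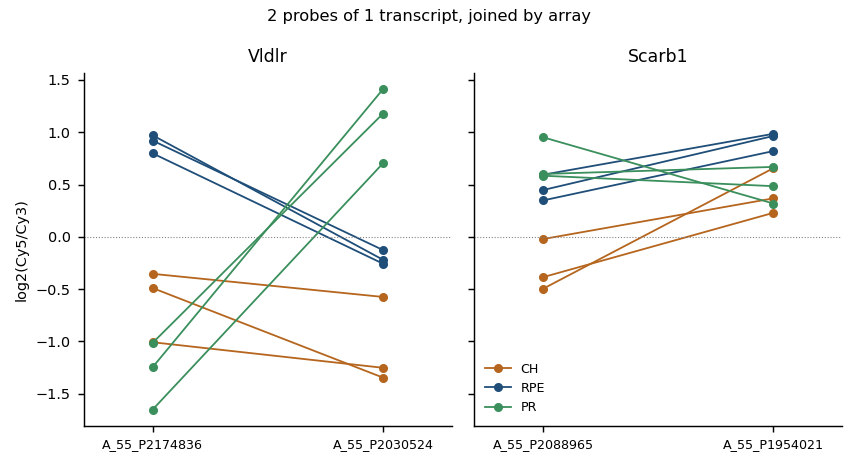
Log2(Cy5/Cy3) of the 2 probes of Vldlr and of Scarb1, with 1 line per array joining its 2 values. All 3 PR lines of Vldlr rise from below -1.0 to above 0.7, while all RPE and CH lines fall.

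A wider list of 66 genes of lipoprotein and cholesterol handling, counted at the brightest probe of each gene, put these results beside their pathway. Of the 66, 28 were called higher and 3 lower in RPE than in PR, 25 higher and 2 lower in CH than in PR, and 2 higher and 4 lower in RPE than in CH. The share of all probes called was 15.5%, 18.4% and 1.73% in these comparisons. By direction, 10.2% were higher and 5.22% lower in RPE than in PR, and 12% and 6.4% in CH than in PR. For RPE against CH these were 0.185% and 1.55%. All probes include dim ones, whereas the list was counted at the brightest probe of each gene. Among 26898 probes well above background on every array of at least 1 tissue, 6083, 7169 and 692 were called. The median difference over the list was 0.58, 0.58 and 0.06, where all probes stood at -0.01, -0.06 and 0.04. With any array left out, 31 or 32 genes, 26 to 28 genes and 4 to 7 genes were called.

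Among 11 other apolipoproteins and plasma carriers, 4 were higher and 1 lower in RPE than in PR (10.2% and 5.22% of all probes). Against PR, 4 were higher in CH (12% of all probes). Between RPE and CH, 1 was higher and 1 lower in RPE (0.185% and 1.55% of all probes). Clu (clusterin, an extracellular chaperone) was at least 3.36-fold higher in RPE than in PR by its Cy5 signals, and its log2 ratios gave the call (adjusted p = 2.21e-07, limma). It was saturated in both RPE and CH, so that its call between them has no size. Apod, a lipocalin that carries small lipids, was higher in CH than in RPE, with an RPE minus CH difference of -2.31 (adjusted p = 0.000238), and lowest in PR, at -3.03 ± 0.24 (SD, n = 3). Apoc3, an inhibitor of lipoprotein clearance, was higher in RPE than in PR by 2.28 (adjusted p = 3.5e-06). Apoh, a phospholipid-binding plasma glycoprotein, was called higher in PR than in RPE, where it was not well above background, so that no FC is given.

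Of 17 genes of assembly, esterification and remodelling, 8 were called higher in RPE than in PR (10.2% of all probes). In CH, 7 were called higher than in PR (12% of all probes). In each comparison 0 were called lower (2 at an unadjusted p below 0.05 in limma), against 5.22% and 6.4% of all probes. Lipa, the lysosomal acid lipase that frees cholesterol from internalised particles, had means of 2.86 ± 0.50 in the CH, 1.78 ± 0.47 in the RPE and -2.25 ± 0.03 in the PR (SD, n = 3). Pon3, a paralogue of Pon1, was higher in RPE than in PR by 4.44 (adjusted p = 5.86e-09, limma) and differed from CH by 0.95 (adjusted p = 0.000562), below the FC threshold. Between RPE and CH, 1 of the 17 was called, lower in RPE (1.55% of all probes). At an unadjusted p below 0.05 in limma, 14 differed between these tissues, 7 in each direction. The called gene was Apobec1, which edits the Apob transcript, at an RPE minus CH difference of -1.46 (adjusted p = 0.000241). Angptl4, an inhibitor of lipoprotein lipase, exceeded PR by 3.02 in the RPE and 3.78 in the CH.

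Of 12 genes of efflux and intracellular cholesterol transport, 4 were higher and 1 lower in RPE than in PR (10.2% and 5.22% of all probes). In CH, 3 were higher and 1 lower than in PR (12% and 6.4% of all probes). Between RPE and CH, 0 were called, against 1.73% of all probes. At an unadjusted p below 0.05 in limma, 5 of these 12 differed between RPE and CH, 4 of them higher in RPE. The gene that was higher in PR was Abcg4, the closest relative of Abcg1, at an RPE minus PR difference of -2.63 (adjusted p = 8.86e-08, limma) and a CH minus PR difference of -2.71. Tspo, a cholesterol-binding protein of mitochondria, was higher in RPE than in PR by 3.08, Npc2, the soluble carrier that passes cholesterol out of lysosomes, by 2.79, and Ch25h, which makes an oxysterol, by 1.58.

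Uptake receptors and adaptors had 9 of 16 genes called higher in RPE than in PR (10.2% of all probes) and 9 higher in CH than in PR (12%). Between RPE and CH, 1 was higher and 2 lower in RPE (0.185% and 1.55% of all probes). Lrp2 (megalin, a large endocytic receptor) was higher in RPE than in CH by 1.42 (adjusted p = 0.00613, limma) and higher than in PR by 3.45. Cd36, a scavenger receptor for fatty acids and oxidised particles, was lower in RPE than in CH, at -1.92 (adjusted p = 0.000189), and so was the macrophage scavenger receptor Msr1, at -1.73 (adjusted p = 7e-05), a gene named after its value was seen because it completes the 3 receptors called between these tissues. Stab1, a scavenger receptor of macrophages and sinusoidal endothelium, was higher in CH than in PR by 4.69, and Sorl1, a sorting receptor, was higher in RPE than in PR by 4.10. The macrophage marker mean was -0.09 to 0.48 on the CH arrays and -0.69 to -0.63 on the RPE arrays, and its part in the values of Cd36, Msr1 and Apobec1 was not tested.

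Of 10 regulators and synthesis genes, 3 were higher and 1 lower in RPE than in PR (10.2% and 5.22% of all probes). In CH, 2 were higher and 1 lower than in PR (12% and 6.4% of all probes). Between RPE and CH, 0 were called, against 1.73% of all probes (8 at an unadjusted p below 0.05 in limma, 4 of these genes in each direction). The lipid-sensing nuclear receptor Pparg was higher in RPE than in PR by 2.04 and in CH than in PR by 2.80. Insig1, which holds back sterol-regulated transcription, was higher in RPE than in PR by 2.08. Nr1h3 (LXRα, the oxysterol receptor) was higher in CH than in PR by 1.68, and its RPE minus PR difference of 1.29 lay just below the FC threshold.

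**Figure D5:**
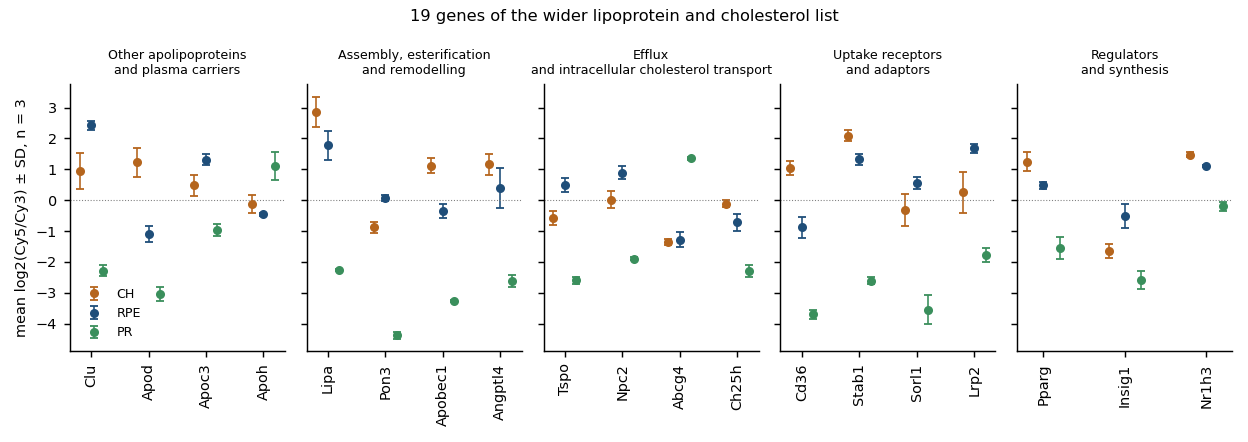
Mean log2(Cy5/Cy3) of 19 genes of the wider list with SD over 3 arrays per tissue, up to 4 per role, chosen for the largest called difference in any comparison. In 17 of the 19 the PR mean is the lowest of the 3 tissues, and in Abcg4 and Apoh it is the highest.

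The genes with the most similar profiles over the 9 arrays, out of 22461 genes, were found by the Euclidean distance between centred log2 ratios. Closest to Pon1 was Enpp2, which encodes autotaxin (distance 0.679, r = 0.997 over 9 arrays). Abcg1 was closest to Mfge8, which encodes a bridging protein of phagocytosis (0.374, r = 0.993), and Vldlr at its brighter probe to Crb2, a polarity gene (0.320, r = 0.995). Mttp was closest to Rnf14 and Scarb1 to Ift57, at distances of 0.267 and 0.207. These points share 3 tissues and 9 arrays, so a high r says mainly that the tissue means follow the same order.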

How the data were processed

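Per the labels, the 9 arrays were read out with Agilent Feature Extraction 9.5.3.1, whose output was deposited. The mean signals and median local backgrounds are deposited intensity values. The software's own log ratio is a deposited log10 value of Cy5 over Cy3. In the authors' series table each column is a log2 value of Cy5. The columns followed log2 Cy5 of the same arrays at r between 0.9845 and 0.9991, with medians from 9.378 to 9.549, and its normalization and centring remain unknown. The log10 ratios and the series table served as alternatives.

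Here, limma 3.58.1 in R 4.3.3 applied normexp background correction with offset 50 and loess within arrays, with control spots at weight 0. Marked outlier spots were left out and spots of a probe averaged. Group means were fitted to all 9 arrays with empirical Bayes moderation. A tissue with over 50% of a probe's spots saturated, or none well above background, on every array gave only a limit: the mean Cy5 signal of the brighter tissue over that of the dimmer, after loess and Aquantile, the dimmer set no lower than the lowest signal well above background. Per-array values come from these normalized ratios. With 3 arrays per tissue, precision is limited by their number. In simulated data, independent normal noise had the residual spread of each probe. There, 91% of probes shifted by a log2 difference of 2 and 100% of those shifted by 3 were called for RPE minus CH, over 38847 probes. Smaller shifts were not simulated, so this gives no power for the smaller differences that were not called here.

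All probes of the 9 genes are reported. Of the wider list, up to 4 genes per role are named by rule, those with the largest called difference. Msr1 is named besides, after its value was seen. A few genes that these rules pick are left out of the text. The genes and lists were chosen with earlier results of these data known. The marker lists were RPE, rods, choroidal endothelium, fibroblasts, macrophages, Müller glia, and smooth muscle and pericytes. Slides held CH 1 and 3 with RPE 1 and 3, CH 2 with RPE 2 and PR 2, and PR 1 and 3; scan day followed slide. Python 3.11.15 with numpy 2.4.6, pandas 2.3.3, scipy 1.17.1 and matplotlib 3.10.9 made motif counts, exact tests and figures. Alternatives covered background, normalization, reference channel, arrays fitted, blocks, dim and marked spots, variance model, thresholds, the series table and each array left out. Human arrays were not analysed here.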

Additional observations from a re-analysis of the deposited data

How the results depend on the processing

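The 2 calls between RPE and CH were the least firm. Their count was 1 with the log ratio of the scanner software, median centring, Cy5 alone and the authors' series table, Pon1 being the probe lost each time, and it ranged from 0 to 2 with each array left out in turn (0 without CH replicate 2, and 1 without CH replicate 1, RPE replicate 1 or RPE replicate 2). The counts of 6 against PR stayed at 6 or 7 in both comparisons under every alternative. Whether replicate numbers pair the samples is not settled. Correlations of deviations ran from -0.078 to 0.286 between samples of the same number and from -0.312 to 0.246 between samples of different numbers. Among replicates 2, which shared a slide, they were 0.164, 0.286 and 0.232. With the replicate block the counts were 2, 6 and 6, as without it. Over single values, 554 of 580 alternatives with a test kept direction and stayed called or not called. An uncalled difference counts as kept even where its p crosses 0.01. For RPE minus CH at the dimmer Scarb1 probe, adjusted p went from 0.0059 to 0.134 with median centring (limma). Mttp, CH minus PR, turned sign from 0.01 to -0.22 with the scanner log ratio, -0.12 with Cy5 alone, -0.15 with the series table, -0.0414 with slide as a block, and ranged from -0.18 to 0.12 with an array left out, below 0 without CH replicate 3 (-0.18), PR replicate 2 (-0.07) or PR replicate 3 (-0.0067). The brighter Scarb1 probe, CH minus PR, turned from -0.07 to 0.0213 without CH replicate 2 and to 0.0161 without PR replicate 3, and ranged from -0.19 to 0.0213 with an array left out. The cause was not tested in either case. Apoe fell to 2.20 (RPE minus PR) and 2.12 (CH minus PR) with Cy5 alone, which does not use the reference. Over all probes, 684 were called between RPE and CH, against 1182 with median centring, 405 with the series table, and 497 to 1010 with an array left out. For CH minus PR, the median of all probes moved from -0.06 to -0.12 with the scanner log ratio. Apob was too dim, and Apoe too bright in RPE and CH, for a difference.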
